A study of Mus musculus with 6 samples.

Results

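The genes of MHC class II antigen presentation were measured in the spleens of 6 Balb/c mice, in 3 mice given perfluorooctane sulfonate (PFOS), a persistent fluorinated surfactant, and in 3 mice labelled as untreated. Members were 10 genes taken by symbol, namely H2-Aa, H2-Ab1, H2-Eb1, H2-DMa, H2-DMb1, H2-DMb2, H2-Oa, H2-Ob, Cd74 and Ciita. Every probe set whose platform symbol equals one of these names, alone or in an entry with several symbols, was counted, which gave 22 of 45101 probe sets for 10 of 18194 genes named on the array. The PFOS group received 10 mg per kg body weight per day by stomach tube for 3 weeks. No vehicle is given in the labels for the control group, so handling by gavage and PFOS cannot be told apart. All mice were 6 to 8 weeks old and female by the labels, and RNA came from whole spleen, hybridized to 1 Affymetrix array for each mouse. The study asked which spleen transcripts differ after exposure, as a way into the toxic mechanism of PFOS.

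MHC class II molecules carry peptides from endosomes to the surface of B cells, dendritic cells and macrophages, where CD4 T cells read them. The classical alpha and beta chains assemble in the endoplasmic reticulum with the invariant chain Cd74, which fills the peptide groove and steers the complex to endosomes. There Cd74 is cut down to a fragment called CLIP, the peptide editor H2-M (H2-DMa with an H2-DMb chain) removes CLIP and selects peptides, and H2-O (H2-Oa with H2-Ob) inhibits H2-M, mainly in B cells. Ciita, the class II transactivator, does not bind DNA itself and is recruited to X and Y boxes in the promoters of these genes by RFX, CREB and NF-Y factors. The promoter layout is shown first because it is a feature that many of these genes share apart from their function.

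Promoter windows from RefSeq (assembly GRCm38.p6, which is the C57BL/6 and not the Balb/c sequence) were used for 7 members. No window was given for H2-Ab1 and Ciita, and Cd74 was left out of the member windows. The member shares below therefore do not cover H2-Ab1, Ciita or Cd74. Among the 7 members used, the windows of 6 held the Y box form TGATTGG. In each sequence capitals mark that form and, where it is present, an X box form that reads AAC, any 2 bases and ATGATG. Sequences run 5′ to 3′ on the strand of the gene, which is the plus strand except for H2-Aa.
H2-Aa (chr17:34287859-34287918, minus strand): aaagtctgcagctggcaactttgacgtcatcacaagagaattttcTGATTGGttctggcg
H2-Eb1 (chr17:34305761-34305820): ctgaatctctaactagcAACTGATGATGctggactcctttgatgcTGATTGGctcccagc
H2-DMb1 (chr17:34153083-34153142): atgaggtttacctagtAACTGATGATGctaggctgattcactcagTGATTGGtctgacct
H2-DMb2 (chr17:34145112-34145171): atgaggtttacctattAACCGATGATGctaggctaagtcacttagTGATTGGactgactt
H2-Oa (chr17:34092289-34092348): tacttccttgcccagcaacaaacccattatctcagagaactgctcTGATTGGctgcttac
H2-Ob (chr17:34238801-34238860): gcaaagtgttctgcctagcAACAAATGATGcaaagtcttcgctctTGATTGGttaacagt
Both forms, which were chosen after these sequences had been read, were searched on both strands of all 32851 windows, each running from 250 bases before to 50 after an annotated start. TGATTGG stood in 7.82% of all windows and in 6 of 8 windows of the 7 members used. Its letters ATTGG are the reverse complement of CCAAT, the usual name of the Y box, which on either strand stood in 37.4% of all windows and in 7 of the 8. The X box form stood in 0.137% of all windows and in 4 of the 8. Windows with both forms numbered 9 in all, or 0.0274%, and 4 of these belonged to H2-Eb1, H2-DMb1, H2-DMb2 and H2-Ob, where 15 to 18 bases lay between the X and Y forms. The 2 windows of H2-DMa held neither form, and H2-Aa and H2-Oa held the Y form alone. These matches are descriptions of letters and not of factor binding.

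Arrays were alike within a group. Values are log2 expression values from robust multi-array average (RMA), and the array medians lay between 6.16 and 6.18. For the 27022 probe sets above the filter on low values (a mean log2 value of 5.62), Pearson's r was 0.9983 to 0.9990 between arrays of 1 group and 0.970 to 0.971 between PFOS and control arrays. The labels call the mice female, but Xist probe sets read 3.85 to 5.86 in PFOS and 3.71 to 5.86 in control spleens, while the brightest probe set of the Y-linked gene Eif2s3y read 9.76 to 9.91 in PFOS and 9.62 to 9.70 in control spleens. All 6 arrays therefore go against the label in the same way, in both groups. Nothing in the labels says how the biological replicates were housed or processed, so p-values measure the spread between these arrays, part of which may be technical.

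Transcripts of class II presentation were higher in PFOS spleens. Limma called 21 of 22 member probe sets higher and 0 lower at an adjusted p under 0.05, where 63.5% of all tested probe sets were called, 37.2% higher and 26.3% lower. At an unadjusted p under 0.05 the count of lower members was also 0. All 22 member probe sets passed the filter. In 21 of 22 the lowest PFOS array exceeded the highest control array, which was so for 40.2% of all tested probe sets. The median log2 change of member probe sets was 0.39, against 0.04 for all tested probe sets, and it ran between -0.06 and 1.03. Changes are PFOS minus control on the log2 scale, errors of changes are limma standard errors (SE), and each group had 3 arrays. In bulk spleen, a larger share of cells of a type and more RNA per cell cannot be told apart.

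**Figure D1:**
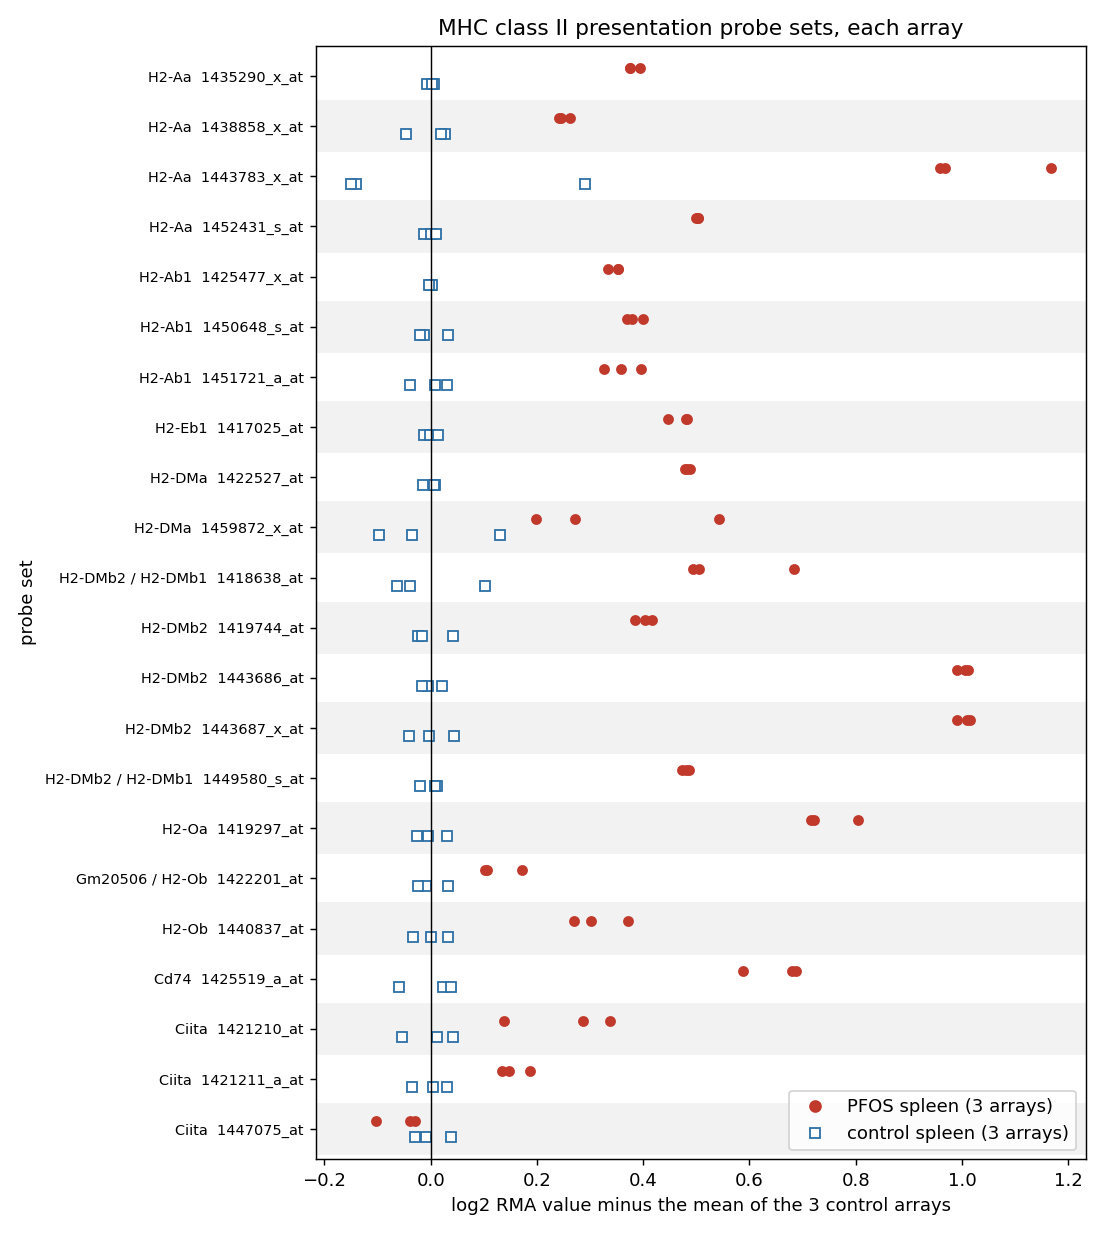
Log2 RMA value of each member probe set in each array, minus the mean of the 3 control arrays (filled circles, PFOS; open squares, control). The PFOS arrays all lie above the control arrays in 21 of the 22 probe sets, and the exception is the Ciita probe set 1447075_at.

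The size of these changes depends on what the arrays are scaled to. RMA makes the arrays' distributions alike, so each change is relative to the array as a whole. Control probe sets for bacterial transcripts that can be added before labelling, 27 in number, averaged 5.81 ± 0.03 in PFOS and 6.29 ± 0.004 in control arrays (SD, n = 3 each; exact two-sided permutation p = 0.1, the smallest that 3 against 3 arrays allow). The labels do not say whether these labelling spikes were added, and their level lay near the array median. Scaling on them moved the median change of all tested probe sets to 0.52 and called all 22 members higher, including the Ciita probe set 1447075_at, with 94.3% of all calls then being higher, against 58.6% in the deposited values and 39.1% with scaling on ribosomal protein genes. Under the last scaling 20 members were called higher and 1 lower. Scaling of this kind adds the same amount to every change, so the 0.35 by which the member median exceeded that of all tested probe sets cannot move with it.

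The classical chains rose by a modest amount. H2-Ab1, the beta chain of the I-A molecule, read 12.39, 12.40 and 12.42 in PFOS spleens, against 12.01, 12.00 and 12.05 in control spleens (probe set 1450648_s_at). The groups did not overlap, and the change was 0.38 ± 0.03 (limma adjusted p = 1.70e-05), or 1.30-fold. The other probe sets of H2-Ab1 changed by 0.35 and 0.36, so its 3 probe sets differed by only 0.04 among themselves. H2-Eb1, the beta chain of the I-E molecule, read 13.07, 13.10 and 13.10 in PFOS spleens, against 12.61, 12.62 and 12.63 in control spleens. The change of H2-Eb1 was 0.47 ± 0.03 (limma adjusted p = 4.41e-06), or 1.39-fold.

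H2-Aa, the alpha chain of I-A, gave a change that differed widely between its 4 probe sets. Its brightest probe set, 1438858_x_at, read 13.81, 13.83 and 13.81 in PFOS spleens, against 13.59, 13.58 and 13.52 in control spleens, a change of 0.25 ± 0.03 (limma adjusted p = 0.000237). At nearly the same level, 1435290_x_at changed by 0.38 ± 0.02 and 1452431_s_at by 0.50 ± 0.02. The dim probe set 1443783_x_at read 7.75, 7.55 and 7.54 in PFOS spleens, against 6.87, 6.44 and 6.43 in control spleens. Its change of 1.03 ± 0.12 (limma adjusted p = 0.000213) was the largest of all members and also the least precise. All H2-Aa probe sets were called higher, but the size of the H2-Aa change ranged over 0.78 on the log2 scale. Whether the brightest probe sets were near the top of the scanner's range was not tested.

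**Figure D2:**
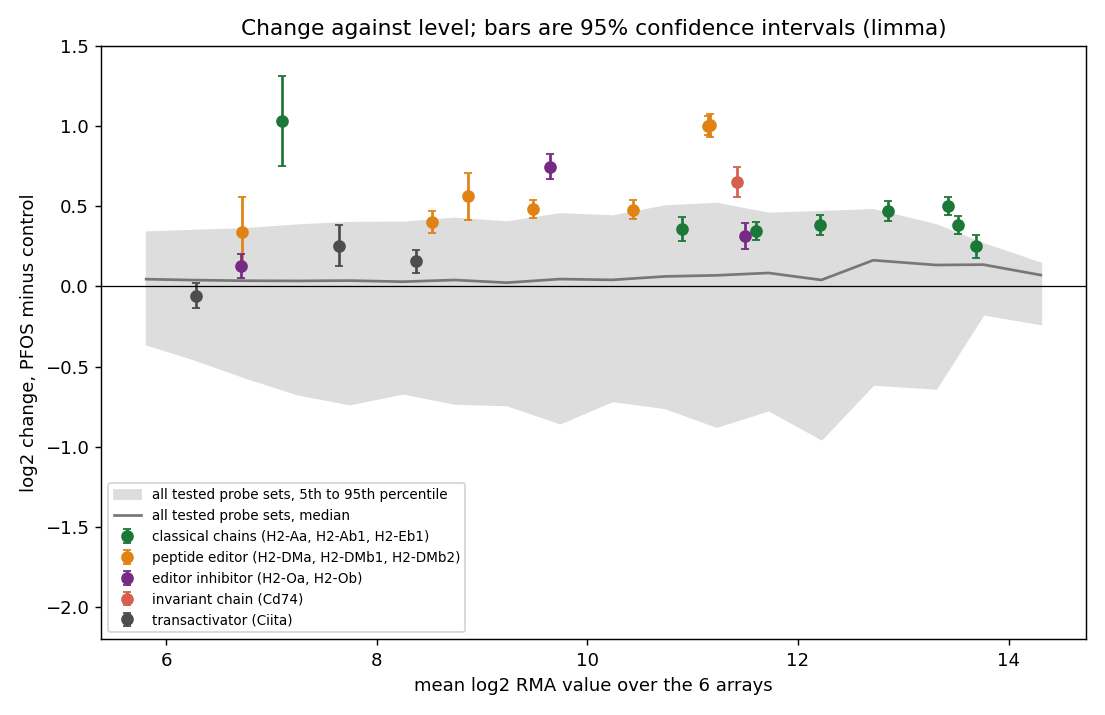
Log2 change (PFOS minus control) of each member probe set against its mean log2 RMA value over the 6 arrays, with 95% confidence intervals from limma, coloured by role. The grey band spans the 5th to 95th percentile of all tested probe sets at that level, and among the points above it are H2-Oa, Cd74, the probe sets of H2-DMb2 near 1.00 and the dim H2-Aa probe set at 1.03.

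The chains of the peptide editor H2-M rose too. H2-DMa, its alpha chain, read 9.72, 9.72 and 9.73 in PFOS spleens, against 9.23, 9.25 and 9.25 in control spleens (1422527_at). The change of H2-DMa was 0.48 ± 0.02 (limma adjusted p = 2.84e-06), and its dimmer probe set 1459872_x_at changed by 0.34 ± 0.10 (limma adjusted p = 0.0161). Leaving out control replicate 3 took the dimmer one to 0.29 with an adjusted p of 0.0539, so its call was lost in that fit. With the replicate number as a block, its limma adjusted p was 0.000742.

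The beta chain of H2-M is encoded by the neighbouring genes H2-DMb1 and H2-DMb2. H2-DMb2 held the largest change among members with a level above 8. Its probe set 1443686_at read 11.63, 11.65 and 11.65 in PFOS spleens, against 10.64, 10.63 and 10.66 in control spleens, and 1443687_x_at read 11.65, 11.67 and 11.68 in PFOS spleens, against 10.62, 10.71 and 10.66 in control spleens. Both changed by 1.00 ± 0.03 (limma adjusted p = 8.63e-08 and 1.84e-07), or 2.00 and 2.01-fold. The remaining H2-DMb2 probe set, 1419744_at, read 8.74, 8.71 and 8.73 in PFOS spleens, against 8.30, 8.37 and 8.31 in control spleens, a change of only 0.40 ± 0.03 (limma adjusted p = 1.78e-05). The 95% intervals of these changes were 0.94 to 1.06 for 1443686_at and 0.33 to 0.47 for 1419744_at, so probe sets under the same gene symbol gave changes whose intervals did not overlap.

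No probe set carried the symbol H2-DMb1 alone. The 2 probe sets assigned to H2-DMb1 and H2-DMb2 together changed by 0.48 ± 0.03 (1449580_s_at) and 0.56 ± 0.06 (1418638_at), nearer to the smaller than to the larger H2-DMb2 value. These cannot be divided between the genes, so no value of H2-DMb1 alone is given. The promoter windows of both H2-DMb genes, printed above, hold the X form and 18 bases later the Y form.

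H2-Oa and H2-Ob, the chains of the H2-M inhibitor, rose by unequal amounts. H2-Oa read 10.08, 9.99 and 9.99 in PFOS spleens, against 9.30, 9.27 and 9.25 in control spleens. With a change of 0.75 ± 0.03 (limma adjusted p = 1.69e-06, 1.68-fold), it lay among the 84 probe sets, or 0.311% of those tested, that rose by at least as much. Falls of that size were not counted. H2-Ob read 11.71, 11.64 and 11.61 in PFOS spleens, against 11.37, 11.30 and 11.34 in control spleens (1440837_at), a change of 0.31 ± 0.04 (limma adjusted p = 0.000177, 1.24-fold). A dimmer probe set shared by H2-Ob and the long noncoding RNA Gm20506 changed by 0.13 ± 0.03 (limma adjusted p = 0.00966) and lost its call with scaling on ribosomal protein genes (0.05, adjusted p = 0.205). Within each array the log2 value of H2-Oa minus that of H2-Ob was -1.63, -1.65 and -1.62 in PFOS and -2.07, -2.04 and -2.09 in control spleens. Since the probes differ, only the shift of this difference can be read, and it was 0.43 (exact two-sided permutation p = 0.1, the smallest possible; adjusted p = 0.1 over 5 such pairs; higher in 3 of 3 PFOS arrays).

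As a pair, the B cell-restricted H2-O genes did not stand apart from the more widely expressed members. The mean change of H2-Oa and H2-Ob was 0.53, and that of the 8 other members, by the brightest probe set of each, was 0.48, with a range of 0.16 to 1.00. H2-Oa lay in the upper part of that range, below H2-DMb2 and above Cd74, and H2-Ob in the lower part. The upper end of the range is the brightest H2-DMb2 probe set, while 1419744_at of the same gene changed by 0.40. The means were not recomputed with that probe set. The difference of the means was 0.05, and array by array, after centring on the control mean, it was 0.12, 0.02 and 0.002 in PFOS and 0.04, -0.02 and -0.02 in control spleens, so that the groups overlapped. It was 0.01 without PFOS replicate 1 and turned to -0.02 without the probe sets marked as able to cross-hybridize or to match several transcripts. No p is given for this difference because the members were chosen with earlier results known.

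The H2-O genes were also set against genes of B cells within the same array. Cd79a, a signalling chain of the B cell receptor, and Ms4a1, which encodes CD20, changed by 0.62 ± 0.03 and 0.47 ± 0.03 (limma adjusted p = 1.24e-06 and 4.03e-06). H2-Oa shifted upward by 0.13 against Cd79a and by 0.28 against Ms4a1. H2-Ob shifted by -0.31 against Cd79a and by -0.15 against Ms4a1. In each of these 4 pairs the PFOS and control arrays did not overlap, and each had an exact two-sided permutation p of 0.1, the smallest possible (adjusted p = 0.1 over the 5 pairs). The shifts exceeded the SD of each group (0.009 to 0.06) in these 6 arrays. The downward direction of H2-Ob held against Cd79a and Ms4a1 but does not extend to every B cell marker. Of the 14 tested B cell markers, 10 changed by more than H2-Ob and 4 by less, namely Blnk, Ebf1, Pax5 and Spib, while 0 changed by more than H2-Oa.

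**Figure D3:**
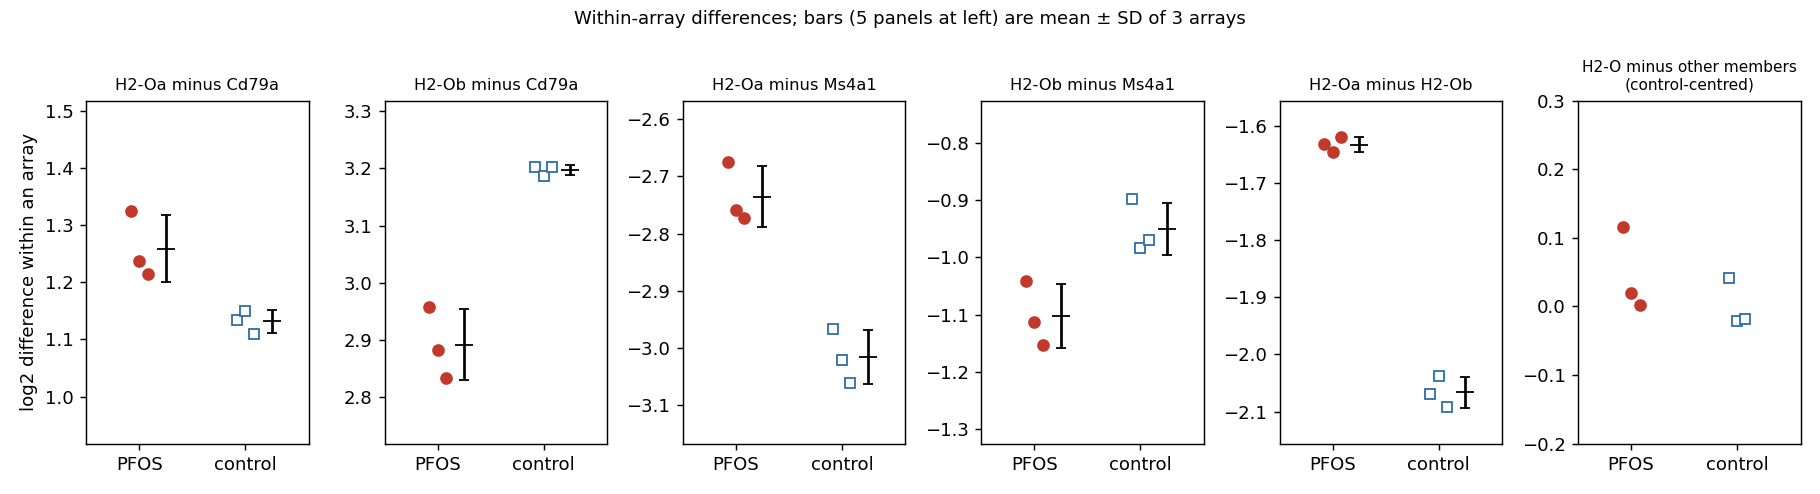
Within-array log2 differences in 3 PFOS (filled circles) and 3 control (open squares) spleens for H2-Oa and H2-Ob against the B cell genes Cd79a and Ms4a1, for H2-Oa against H2-Ob, and for the mean of the H2-O genes against the mean of the 8 other members. H2-Oa shifted up and H2-Ob down against both B cell genes, while in the last panel, centred on the control mean, the groups overlap.

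Cd74 rose by more than most members and Ciita by less. Cd74, the invariant chain, read 11.69, 11.79 and 11.78 in PFOS spleens, against 11.04, 11.12 and 11.14 in control spleens. The Cd74 change was 0.65 ± 0.04 (limma adjusted p = 7.91e-06, 1.57-fold), larger than that of any brightest probe set of a classical chain. Ciita, the transactivator, read 8.48, 8.44 and 8.43 in PFOS spleens, against 8.33, 8.26 and 8.30 in control spleens (1421211_a_at), a change of 0.16 ± 0.03 (limma adjusted p = 0.00280, 1.11-fold). A second Ciita probe set, 1421210_at, read 7.65, 7.85 and 7.80 in PFOS and 7.46, 7.53 and 7.56 in control spleens, with a change of 0.25 ± 0.05 (limma adjusted p = 0.00473). The dimmest, 1447075_at, read 6.27, 6.20 and 6.28 in PFOS and 6.30, 6.34 and 6.28 in control spleens, a difference of -0.06 with a 95% interval from -0.13 to 0.02 that did not pass the test (limma adjusted p = 0.161). The PFOS arrays lay below the control arrays there, by very little for the nearest pair. With scaling on ribosomal protein genes it was called lower (-0.13, adjusted p = 0.0105), and with scaling on the labelling spikes higher (0.42, adjusted p = 4.16e-06).

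Beyond the members, 43 tested genes of the pathway, one probe set each, were called higher in 29 cases and lower in 6, with a median change of 0.22. Of all 13101 genes tested in this way 65% were called, 39.6% higher and 25.4% lower, with a median of 0.05. With scaling on the labelling spikes 42 of the 43 were called higher and 1 lower, which was Marchf8. The list was fixed with earlier results of these data known.

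Further class II chains rose with the members. H2-Ea, the alpha chain of I-E, which is annotated as a pseudogene in the C57BL/6 reference and is active in Balb/c mice, changed by 0.24 ± 0.02 (limma adjusted p = 0.000112) at a level of 13.92 in PFOS and 13.68 in control spleens. H2-Eb2, a second beta chain gene, changed by 0.27 ± 0.06 (limma adjusted p = 0.00626).

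The factors that bind the X and Y boxes moved in different directions. Of 7 measured, 3 rose, 3 fell and 1 did not pass the test, and the median was 0.03. The RFX subunits Rfx5 and Rfxank changed by 0.44 ± 0.03 and 0.36 ± 0.05 (limma adjusted p = 1.05e-05 and 0.000360), while their partner Rfxap changed by -0.28 ± 0.03 (0.000149). The NF-Y subunits Nfyb and Nfyc, which bind the Y box, changed by -0.38 ± 0.04 and -0.15 ± 0.02, and the third subunit Nfya differed by 0.03 ± 0.03 and did not pass the test (limma adjusted p = 0.433). The X box factor Creb1 changed by 0.10 ± 0.03. The 3 lower calls turned to higher with scaling on the labelling spikes.

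Of 12 genes listed under antigen and invariant chain processing, 7 rose and 1 fell (median 0.19). Ctsh, an endosomal aminopeptidase, changed by 0.44 ± 0.03, and Ctss, the protease that makes the last cut towards CLIP, by 0.32 ± 0.03 (limma adjusted p = 9.97e-06 and 2.97e-05). Sppl2a, which clears the membrane stub of Cd74 in B cells, changed by 0.36 ± 0.03. The gene that fell was Asph, a hydroxylase rather than a protease, at -0.28 ± 0.05, which turned with scaling on the labelling spikes. Ctsb, Ctsd, Ctsl and the thiol reductase Ifi30 differed by -0.03 to 0.06 and did not pass the test.

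Turnover genes held the largest single difference of the pathway. Marchf8, a membrane ubiquitin ligase that can mark class II molecules for degradation, averaged 8.88 in PFOS and 10.31 in control spleens, a change of -1.43 ± 0.03 (limma adjusted p = 2.63e-08). Its relative Marchf1, the main ligase for class II in B cells and dendritic cells, was named after its value was seen and changed by 0.40 ± 0.04 (limma adjusted p = 7.30e-05). Cd83, which protects class II from Marchf1, changed by 0.46 ± 0.02, the late endosome GTPase Rab7 by 0.30 ± 0.03 and the clathrin adaptor subunit Ap2a1 by -0.13 ± 0.04. Of 8 turnover and traffic genes tested, 5 rose and 2 fell, of which Ap2a1 turned with scaling on the labelling spikes.

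On the side of the T cell and costimulation, 7 of 8 genes rose and 0 fell (median 0.31). Cd40 and Icosl, which B cells use to engage helper T cells, each changed by 0.58 to 0.59 ± 0.03, and Cd86 by 0.36 ± 0.02, while Cd80 differed by 0.007 and did not pass the test (limma adjusted p = 0.865). Between interferon gamma and Ciita, 5 of 6 genes rose (median 0.28). Irf1, an activator of the Ciita promoter, changed by 0.40 ± 0.03, the receptor chain Ifngr2 by 0.37 ± 0.03 and the kinase Jak1 by 0.27 ± 0.03. Ifng itself averaged 4.22 over the arrays, below the filter, and was not tested.

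**Figure D4:**
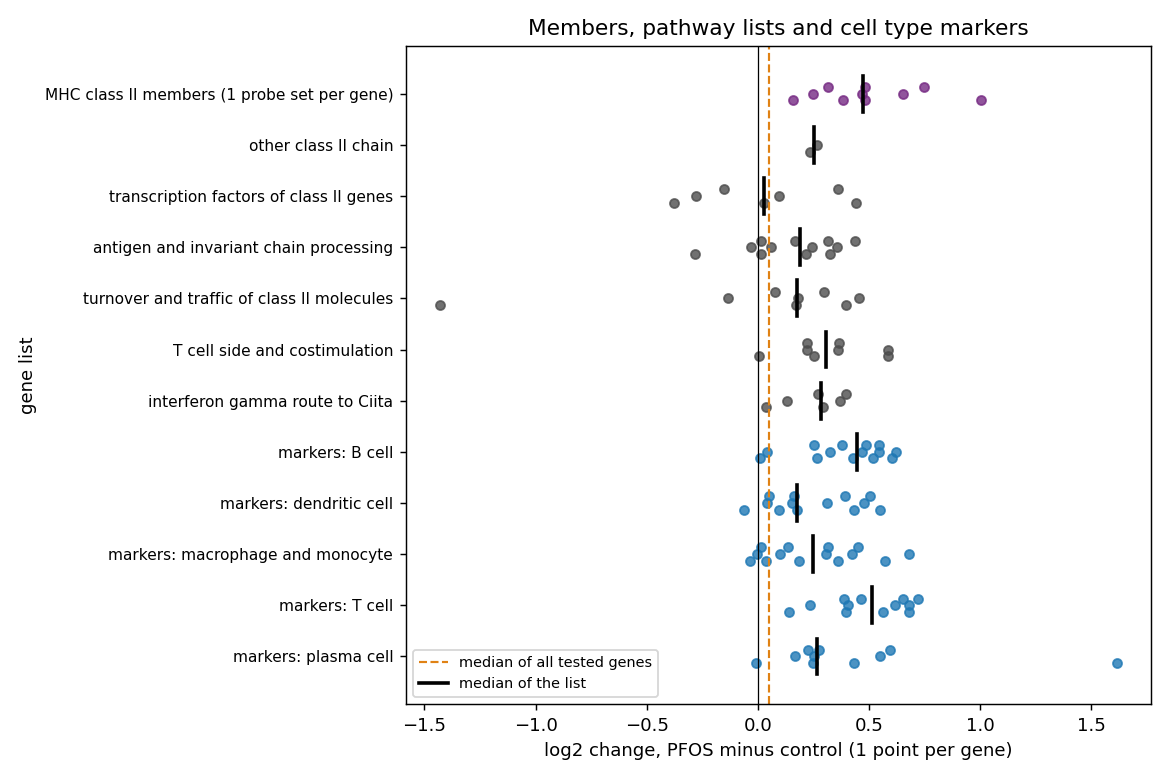
Log2 change (PFOS minus control) of each tested gene, by list, with the list median (black bar) and the median of all tested genes (dashed line at 0.05). Member genes have a median of 0.48, B cell markers 0.45, T cell markers 0.51, macrophage and monocyte markers 0.25 and dendritic cell markers 0.17.

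Markers of the cells that carry class II moved in the same direction as the members. For comparison, 39.6% of all tested genes were called higher and 25.4% lower. Of 14 B cell markers tested, 12 rose and 0 fell, and their median of 0.45 was close to the 0.48 of the member genes by 1 probe set each. The summed signal of the B cell markers was 30257 to 30670 in PFOS arrays and 23005 to 23327 in control arrays, on a linear scale. Among dendritic cell markers 9 of 13 rose, with a median of 0.17 and sums of 4429 to 4532 in PFOS and 3486 to 3570 in control arrays. Among macrophage and monocyte markers 10 of 14 rose, with a median of 0.25 and sums of 31082 to 31131 in PFOS and 24996 to 25096 in control arrays. No marker of these 3 lists was called lower, apart from Ccl22 with scaling on ribosomal protein genes. Pax5 and Spib, factors of B cell identity, differed by 0.04 and 0.009 and did not pass the test, and neither did the dendritic cell factor Zbtb46 (0.05) or the macrophage marker Adgre1 (0.02).

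Markers of other cells moved as well. All 12 tested T cell markers rose (median 0.51, sums 9565 to 9674 in PFOS and 6410 to 6503 in control arrays) and so did 9 of 10 plasma cell markers (median 0.26, sums 31927 to 32046 in PFOS and 23559 to 24414 in control arrays). All 13 red cell precursor markers fell (median -1.67), with sums of 20384 to 20563 in PFOS and 47664 to 48419 in control arrays. All 11 hepatocyte markers fell (sums 472 to 513 in PFOS and 5944 to 6010 in control arrays), and since 8 of them lay under the filter's level of 5.62 in PFOS arrays, no median change is given. Of neutrophil markers 7 of 8 fell (median -0.79, sums 3998 to 4097 in PFOS and 5779 to 5878 in control arrays), and of pancreatic acinar markers 6 of 6 (median -0.56, sums 638 to 701 in PFOS and 1206 to 1229 in control arrays). These sums cover 9 neutrophil and 8 pancreatic genes, since they include Mmp8, Cela2a and Pnliprp1, which lay under the filter and were not tested. With scaling on the labelling spikes 12 red cell precursor, 11 hepatocyte, 5 neutrophil and 2 pancreatic markers were called lower. The 8 hepatocyte markers under the filter's level in PFOS arrays were tested only because of their control level. The part of any of these cell types in the member changes was not tested.

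Apart from Cd74 and Ciita, the members lie close together on chromosome 17. RefSeq (GRCm38.p6, used for gene order) places 16 genes from H2-Oa to H2-Ea, of which 7 that are no members were tested. Of these, 5 were higher, 1 lower and 1 not called, with a median change of 0.27. Of all genes tested by 1 probe set, 39.6% were called higher and 25.4% lower. The 5 include the class II chains H2-Ea and H2-Eb2, and the median is the value of H2-Eb2. Psmb9 and Psmb8, subunits of the immunoproteasome, changed by 0.36 ± 0.02 and 0.32 ± 0.03, and Tap1, which carries peptides for class I, by 0.34 ± 0.03. Its partner Tap2 differed by 0.003 ± 0.03 and did not pass the test (limma adjusted p = 0.922). Brd2, a chromatin reader of the BET family that lies between H2-Oa and H2-DMa, changed by -0.21 ± 0.03 (limma adjusted p = 0.000242), although the genes on both sides of it rose. With scaling on the labelling spikes Brd2 too was called higher, at 0.26, and Tap2 at 0.48.

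**Figure D5:**
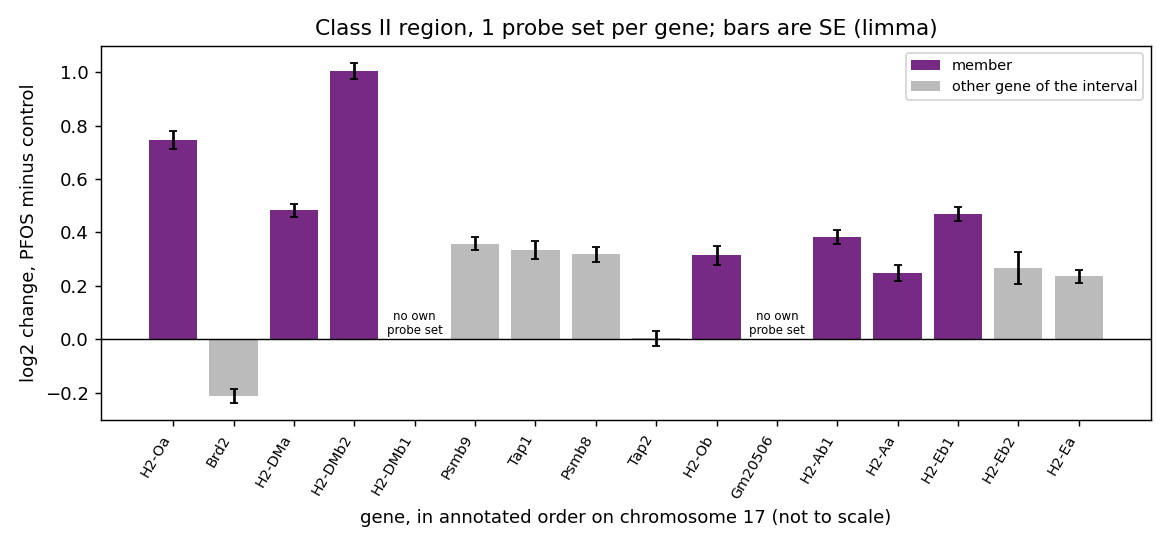
Log2 change (PFOS minus control, bars with limma SE) of 14 genes in the annotated order of the 16 from H2-Oa to H2-Ea on chromosome 17, where H2-DMb1 and Gm20506 have no probe set of their own. Members are purple, and the grey bar of Brd2 at -0.21 (0.26 with scaling on the labelling spikes) stands between those of H2-Oa at 0.75 and H2-DMa at 0.48.

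The nearest patterns among other genes were found by the distance between control-centred values over the 6 arrays (root mean square, 13092 candidate genes). Nearest to H2-Oa were Trbv1, a variable segment of the T cell receptor beta chain, at a distance of 0.01, the sorting receptor Sorl1 and the mitochondrial assembly factor Sdhaf1, both at 0.03. Their changes were 0.75, 0.76 and 0.73. Nearest to H2-Ob were the sorting nexin Snx2 and the signal recognition particle subunit Srp9, both at 0.01, with changes of 0.31, and the deubiquitinase Stambpl1 at a change of 0.33. With 2 groups of tight replicates, genes with a group difference of the same size are near each other by this measure.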

How the data were processed

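Whole spleen RNA of 3 PFOS and 3 control mice was hybridized to Affymetrix Mouse430_2 arrays from 6 ug of RNA, per the labels' protocols. The deposited values are log2 expression values that the authors made with RMA, per the submitters' processing notes. The RMA version and the authors' own filters and tests are not stated in those notes. RMA corrects background, equalizes arrays and summarizes probes, so changes are relative to an array's distribution. Detection calls and scanner files were not used here, and the number of arrays limits the precision.

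Probe sets were named from the platform annotation: 34958 had 1 symbol and 932 several. Array controls (64) and probe sets with a mean under the 40th percentile of the rest (5.62) were left out, which kept 27022. A two-group linear model was fitted to these with limma 3.58.1 under R 4.3.3 (lmFit, then eBayes). Its two-sided p-values were adjusted by Benjamini-Hochberg across the whole table, and a call is an adjusted p under 0.05. For lists, the brightest single-symbol probe set above the filter stood for a gene. Within-array differences were compared by exact permutation. 1 other planned comparison is not reported here. The within-array comparisons with Cd79a and Ms4a1, and that of H2-Oa with H2-Ob, were chosen after seeing the data. H2-DMb1 entered the H2-O comparison through a probe set shared with H2-DMb2. The fit was tested on simulated data. Members, lists, tests and alternatives were chosen with earlier results of these data known.

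All member probe sets were to be named, with up to 3 pathway genes a list by smallest p, those called in the minority direction, up to 2 markers a list, and the 3 nearest patterns of H2-Oa and H2-Ob. Markers are given mostly as counts. Alternatives covered the replicate block, the filter, scaling, which probe sets entered, array weights, an intensity trend in the variance prior and leaving out each array.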

Additional observations from a re-analysis of the deposited data

How the results depend on the processing

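Each of the 22 member probe sets was recomputed under 17 alternatives where it could be fitted, and in 342 of 346 cases it kept its direction and its side of the threshold. The 4 others were the shared H2-Ob probe set and the Ciita probe set 1447075_at with scaling on ribosomal protein genes (0.05 and -0.13), 1447075_at with scaling on the labelling spikes (0.42) and the dim H2-DMa probe set without control replicate 3 (0.29). Members called, and members called higher, numbered 9 of 9 with 1 probe set per gene and 9 of 10 without _s_at, _x_at and _a_at probe sets, where fewer were in the fit, 19 with the stricter filter, and 20 to 21 when 1 array was left out. Members called lower numbered 1 with scaling on ribosomal protein genes, and pathway genes called lower numbered 1 with scaling on the labelling spikes. The difference between H2-O and other members was -0.023 when the _s_at, _x_at and _a_at types were dropped, with 5 other members left, and 0.01 to 0.07 when 1 array was left out. The share of all probe sets called was 49.5% without the filter and 95.9% with scaling on the spikes. Same-numbered PFOS and control arrays deviated together with r = 0.33, 0.14 and 0.09 for replicates 1, 2 and 3. PFOS replicates 1 and 2 correlated best with the control array of their own number, and PFOS replicate 3 with control replicate 2 (0.12). The labels name no shared processing, so the main fit did not take the numbers as pairs. Whether same-numbered arrays shared a processing step was not tested. With the numbers as a replicate block, 66.0% of all probe sets were called, against 63.5% in the main fit. In that fit 21 members and 36 pathway genes were called, and no member changed its call. Scaling subtracts a constant per array, so it cannot move a within-array difference. The number of arrays sets the smallest exact p at 0.1.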
